A study of Rattus norvegicus with 12 samples.

Results

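The 9 genes described here set how much glucose the liver makes and record the hormones it has seen. They were the rows of the expression table whose gene name was Pck1, G6pc, Fbp1, Ppargc1a, Foxo1, Igfbp1, Irs2, Insr or Igf1. Each name matched 1 row, which gave 9 genes of the 33744 in the table. RNA was sequenced from 12 livers of male Sprague Dawley rats in a model of donation after circulatory death (DCD), 3 livers in each of 4 groups. The HOPE 1 h livers had 30 min of warm ischemia in situ, 3 h of static cold storage, and then hypothermic oxygenated machine perfusion for 1 h. The HMP 1 h livers had the same warm ischemia and 3 h of storage, then 1 h of hypothermic perfusion without active oxygenation. The SCS 4 h livers had 30 min of warm ischemia and 4 h of static cold storage, and the WI 30 min livers had the 30 min of warm ischemia alone. All donors were heparinized and flushed. Every liver had the 30 min of warm ischemia, so no group was free of ischemia, and WI 30 min served as the baseline. The rats were kept on chow in alternating light and dark, but the sources used here give neither the feeding state of the donors nor the hour of surgery. The cold storage and perfusion fluid was named as HTK solution, a buffered preservation fluid, and insulin and dexamethasone were named only for a warm blood perfusion that came after the stage sampled here.

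In the fasted liver, glucagon and glucocorticoids switch on gluconeogenesis, the making of glucose from lactate, amino acids and glycerol. Glucagon acts through cyclic AMP and the factor CREB, which also induces Ppargc1a, a coactivator that lifts the gluconeogenic genes. After a meal, insulin acts through its receptor Insr and the docking protein Irs2 to shut the factor Foxo1 out of the nucleus. Foxo1 otherwise drives Pck1, G6pc and Igfbp1, and Irs2 itself is higher in the fasted than in the fed liver. Igf1, the main growth factor the liver secretes, follows growth hormone and food supply over a longer time. These roles are background and were not measured here.

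The sequences just upstream of 4 of these genes are shown because they carry the letters through which cyclic AMP and insulin are known to act on them. They are the 250 bases before the RefSeq start in the GRCr8 rat build, which is not the Rnor_6.0 build of the counts, and 8 of the 9 genes were matched in the RefSeq table, with G6pc under the name G6pc1 and Irs2 unmatched. Capitals mark CAAAACA (an insulin response sequence, here also as TGTTTTG from the other strand), TGACGTCA, TTACGTCA and TTACGTAA (forms of the cyclic AMP response element) and TATAAA, the core promoter box.
Igfbp1, plus strand of chr14:86261027-86261276: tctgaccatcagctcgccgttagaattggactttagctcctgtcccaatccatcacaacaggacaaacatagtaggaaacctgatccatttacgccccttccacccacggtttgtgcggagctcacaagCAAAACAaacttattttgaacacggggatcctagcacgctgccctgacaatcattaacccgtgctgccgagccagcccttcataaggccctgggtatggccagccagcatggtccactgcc
G6pc, plus strand of chr10:86807409-86807658: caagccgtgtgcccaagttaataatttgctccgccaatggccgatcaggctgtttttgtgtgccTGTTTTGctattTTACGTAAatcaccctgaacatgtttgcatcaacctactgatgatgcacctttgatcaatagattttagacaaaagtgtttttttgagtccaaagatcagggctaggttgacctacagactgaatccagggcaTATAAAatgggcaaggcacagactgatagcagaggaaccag
Pck1, plus strand of chr3:182348322-182348571: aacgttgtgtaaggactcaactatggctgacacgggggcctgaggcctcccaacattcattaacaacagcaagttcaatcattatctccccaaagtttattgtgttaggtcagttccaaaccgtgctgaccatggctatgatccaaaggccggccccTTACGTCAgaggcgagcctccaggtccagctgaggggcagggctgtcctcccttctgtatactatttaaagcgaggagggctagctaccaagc
Ppargc1a, plus strand of chr14:63634058-63634307: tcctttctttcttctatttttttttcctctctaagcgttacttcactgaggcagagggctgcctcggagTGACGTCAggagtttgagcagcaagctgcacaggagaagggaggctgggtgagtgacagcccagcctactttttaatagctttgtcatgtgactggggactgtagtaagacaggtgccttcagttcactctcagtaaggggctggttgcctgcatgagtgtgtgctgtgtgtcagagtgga
All motifs were searched on both strands, with positions counted back from -1 at the last base before the start. CAAAACA was in the window of Igfbp1 from -121 to -115, in that of G6pc from -186 to -180 and in that of Igf1 from -67 to -61, and 5.456% of all 33469 promoter windows of this length held it. TGACGTCA was in the Ppargc1a window from -181 to -174 (1.587% of windows), and TATAAA in the G6pc window from -41 to -36 (12.93% of windows). TTACGTCA in Pck1 from -93 to -86 (0.7499% of windows) and TTACGTAA in G6pc from -174 to -167 (0.1076% of windows) were searched after those windows had been seen. GTAAACA, a form of the FoxO site, was in the Insr window from -100 to -94 (3.215% of windows). The shorter AAACA, which lies inside CAAAACA and GTAAACA, was in 46.98% of windows and in those of G6pc, Igf1, Igfbp1 and Insr, and TGACG, which lies inside TGACGTCA and on the other strand of TTACGTCA, was in 18.22% of windows and in those of Insr, Pck1 and Ppargc1a. None of these letters was found in the Fbp1 and Foxo1 windows. A match is a description of the letters and not a measured site.

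Libraries held between 15262961 and 18343167 counts, and all 9 genes were among the 13687 that passed the filter for low counts. Levels are given as CPM, counts scaled to the size of the library after TMM correction for composition. The mitochondrial share of counts was 6.56% to 10.2% in HOPE livers and 18.7%, 4.79% and 5.27% in HMP livers 1, 2 and 3, against 5.07% to 6.02% in SCS livers and 5.07% to 5.77% in WI livers, so that every HOPE liver lay above every unperfused liver. With mitochondrial transcripts left out of the counts, 0 of the 9 members were called in any comparison, the same as with them kept. In each of the 6 pairs of groups that fit called 0 of 13664 genes. It called 133 genes in perfused against unperfused livers. The count of members therefore cannot tell whether the mitochondrial share matters. Kupffer cell markers summed to 1745 CPM in HMP liver 1 and 1060 CPM in HOPE liver 3, against at most 736 CPM in the SCS livers and 611 CPM in the WI livers. The 9 hepatocyte markers were all present, summing to between 145014 and 226641 CPM. Of the 6 markers of the islets and exocrine pancreas, Ins1, Ins2, Gcg, Prss1 and Pnlip had 0 counts in all livers. The other marker of that list, Cela1, had 6133 counts in all, with 20.7 to 41.4 CPM a liver. In bulk tissue, fewer cells of a type and less RNA per cell cannot be told apart. The labels number the livers of a group without saying how they were obtained, so p-values measure only the spread between these samples, which may be technical.

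The levels of the 9 genes spanned a wide range, with Pck1 far above the rest. On the deposited scale that divides by gene length (FPKM), Pck1 averaged 1343 FPKM over the 12 livers, Fbp1 558, Igfbp1 460, G6pc 248 and Igf1 228 FPKM. The lower tier held Insr at 11.9, Foxo1 at 9.84, Irs2 at 6.35 and Ppargc1a at 2.16 FPKM. The lowest Pck1 value (871 FPKM) lay above the highest Fbp1 value (740 FPKM), and the lowest Igf1 value (189.5 FPKM) above the highest Insr value (14.4 FPKM). All other neighbours in this order overlapped in their range over livers, although Irs2 was above Ppargc1a in 12 of 12 livers. Secreted and enzymatic products of the hepatocyte were the abundant transcripts, and the receptor, docking protein, factor and coactivator the scarce ones.

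Pck1 (ENSRNOG00000028616, chr3:171213936-171219871, plus strand, Rnor_6.0) encodes cytosolic phosphoenolpyruvate carboxykinase, which makes phosphoenolpyruvate from oxaloacetate early in gluconeogenesis. It had 3742, 2664 and 4016 CPM in HOPE livers 1, 2 and 3, 2787, 3925 and 5005 CPM in the HMP livers, 3287, 3440 and 4597 CPM in the SCS livers, and 3546, 2254 and 3050 CPM in the WI livers. The groups overlapped throughout, and the highest liver, HMP liver 3, stood 2.22-fold above the lowest, WI liver 2. The mean was 3906 ± 1109 CPM in HMP and 2950 ± 652 CPM in WI livers (SD, n = 3 each), a log2 fold change of 0.40 with a 95% interval of -0.17 to 0.97.

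G6pc (ENSRNOG00000051171, chr10:89285855-89296213, plus strand) encodes the catalytic subunit of glucose-6-phosphatase, the last step before glucose leaves the hepatocyte. Its CPM was 865, 281 and 614 in the HOPE livers, 793, 609 and 914 in the HMP livers, 661, 889 and 484 in the SCS livers and 654, 577 and 682 in the WI livers. HOPE liver 2 was the lowest of the 12, and the HOPE group spanned 3.07-fold, against 1.18-fold in the WI group. The mean was 586 ± 293 CPM in HOPE and 638 ± 54.1 CPM in WI livers (SD, n = 3 each), well within the HOPE spread.

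Fbp1 (ENSRNOG00000017597, chr17:396180-417480, minus strand) encodes fructose-1,6-bisphosphatase, the step between the other 2 enzymes. It had 759, 850 and 677 CPM in HOPE livers, 497, 679 and 785 CPM in HMP livers, 1013, 1075 and 843 CPM in SCS livers, and 936, 851 and 766 CPM in WI livers. Every HMP liver was below every SCS liver, with a log2 fold change of -0.58 ± 0.183 (SE, edgeR adjusted p = 0.189, DESeq2 adjusted p = 0.0691). The lowest value of the 12 was that of HMP liver 1, the liver with 18.7% mitochondrial counts, a summed hepatocyte marker level of 155251 CPM and the high Kupffer markers given above. Without that liver the log2 fold change was -0.40 with an edgeR adjusted p of 0.325, and the part of those markers in the difference was not tested.

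**Figure D1:**
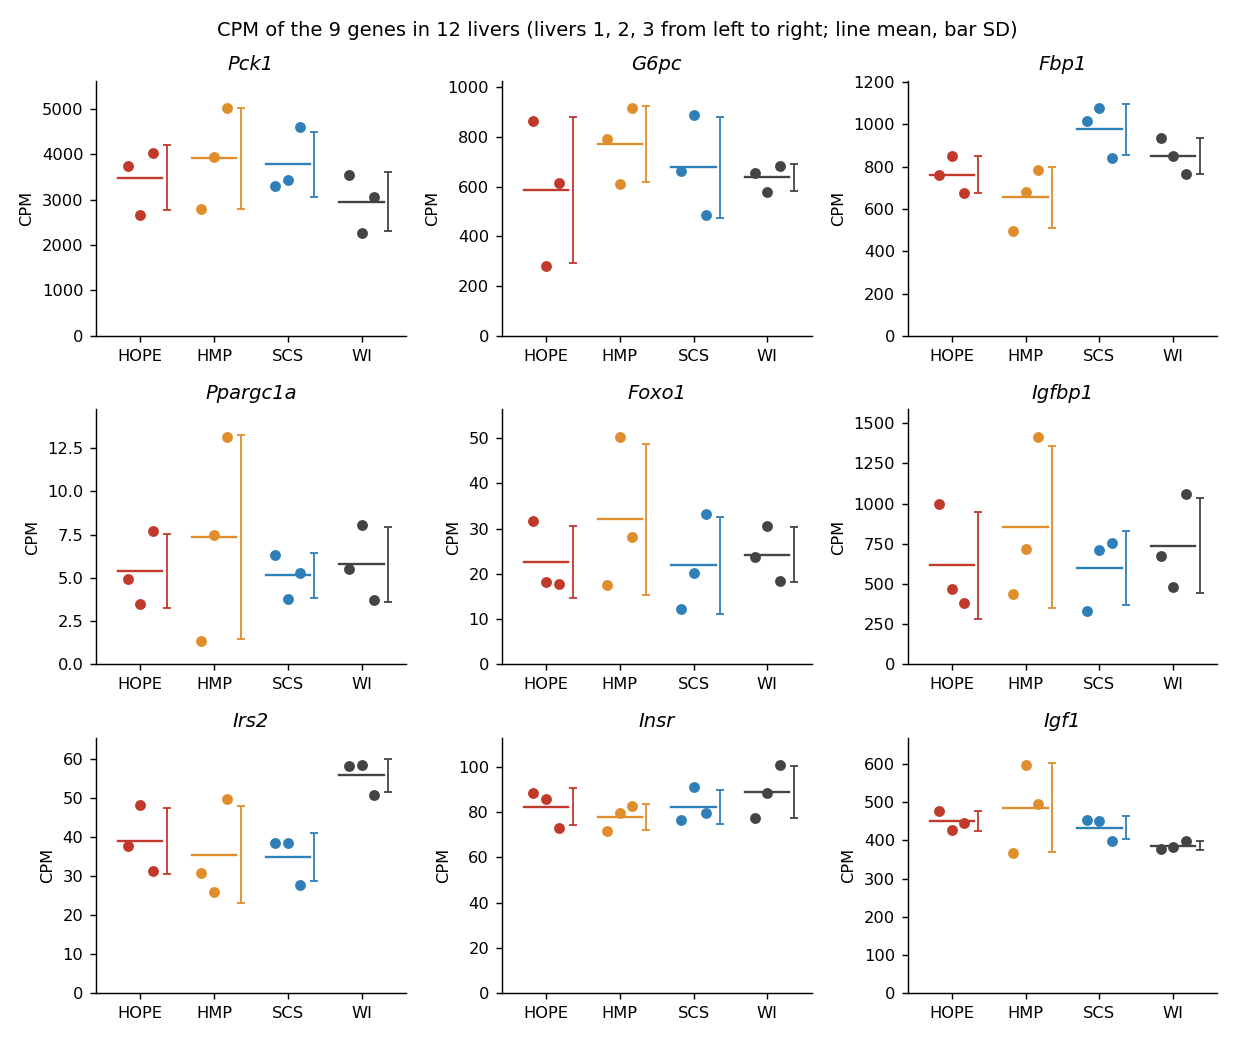
CPM (vertical axes, each starting at 0) of the 9 genes in the HOPE, HMP, SCS and WI groups (horizontal axes). Points are livers 1, 2 and 3 from left to right, lines are means and bars are SDs (n = 3). The 3 WI livers sit above all other livers for Irs2 (50.9 to 58.5 CPM), a split for which no share of all genes was computed. For Pck1, G6pc, Ppargc1a, Foxo1, Igfbp1 and Insr all groups overlap.

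Ppargc1a (ENSRNOG00000004473, chr14:63095720-63187009, plus strand), the cyclic AMP induced coactivator, was scarce, with between 24 and 200 counts a liver. Its CPM was 5.0, 3.5 and 7.7 in the HOPE livers, 1.4, 7.5 and 13.2 in the HMP livers, 6.3, 3.8 and 5.3 in the SCS livers and 5.5, 8.1 and 3.7 in the WI livers. Both the lowest and the highest liver belonged to the HMP group, which spanned 9.60-fold. The lowest value rests on 24 counts, where counting error alone gives an SD of about 0.29 on the log2 scale.

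Foxo1 (ENSRNOG00000013397, chr2:141451234-141527016, plus strand), the factor that insulin restrains, had 31.7, 18.2 and 17.8 CPM in HOPE livers, 17.7, 50.3 and 28.2 CPM in HMP livers, 12.2, 20.2 and 33.3 CPM in SCS livers, and 23.7, 30.6 and 18.4 CPM in WI livers. HMP liver 2 was the highest and SCS liver 1 the lowest, and the groups overlapped. Insulin acts on Foxo1 mainly by moving the protein, which RNA does not show.

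Igfbp1 (ENSRNOG00000058780, chr14:87448692-87453785, plus strand) encodes a secreted protein that binds insulin-like growth factors and is sharply repressed by insulin. It had 998, 472 and 380 CPM in HOPE livers, 436, 720 and 1416 CPM in HMP livers, 333, 713 and 753 CPM in SCS livers, and 674, 482 and 1061 CPM in WI livers. In all 4 groups the highest liver was more than 2-fold above the lowest, between 2.20-fold in WI and 3.25-fold in HMP livers. The HOPE mean was 617 ± 334 CPM and the WI mean 739 ± 295 CPM (SD, n = 3 each), with a log2 fold change of -0.26 and a 95% interval of -1.32 to 0.80.

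Irs2 (ENSRNOG00000023509, chr16:83824430-83848684, plus strand), the docking protein that carries the signal of the insulin receptor inward, was the member whose groups stood furthest apart. It had 37.7, 48.2 and 31.2 CPM in HOPE livers, 30.9, 26.0 and 49.7 CPM in HMP livers, 38.4, 38.4 and 27.8 CPM in SCS livers, and 58.2, 58.5 and 50.9 CPM in WI livers. Each WI liver was above each of the 9 stored livers, but the share of all genes apart in that way was not computed. The log2 fold change against WI was -0.52 ± 0.234 in HOPE livers (SE, edgeR adjusted p = 0.576). It was -0.65 ± 0.235 in HMP livers (SE, edgeR adjusted p = 0.269) and -0.68 ± 0.235 in SCS livers (SE, edgeR adjusted p = 0.962). The 3 comparisons share the WI livers and are not independent. None passed the test, and in these pairs between 13% and 16.2% of all tested genes had groups that did not overlap. The summed level of the 4 measured blood markers was also highest in WI livers, at 588 to 873 CPM in HOPE, 132 to 1252 CPM in HMP and 254 to 921 CPM in SCS livers, against 1773 to 2428 CPM in WI livers, with most of the counts from Hbb and Hba-a2. The red cell genes Hbb, Hba-a2 and Alas2 had log2 fold changes against WI between -2.03 and -1.48 in the 3 comparisons, while the leukocyte gene Ptprc had 0.19 in HOPE, 0.55 in HMP and -0.16 in SCS livers, and edgeR called none of the 4. Their part in the Irs2 values was not tested.

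Insr (ENSRNOG00000029986, chr12:1680957-1816414, minus strand), the insulin receptor, was the steadiest of the 9 genes. It had 88.3, 85.9 and 73.2 CPM in HOPE livers, 71.5, 79.6 and 82.7 CPM in HMP livers, 76.4, 91.0 and 79.8 CPM in SCS livers, and 77.6, 88.7 and 100.8 CPM in WI livers. The largest of its 6 pairwise log2 fold changes was -0.19 in HMP against WI livers, with a 95% interval of -0.48 to 0.09.

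Igf1 (ENSRNOG00000004517, chr7:28412198-28486609, plus strand) had 478, 426 and 446 CPM in HOPE livers, 366, 597 and 496 CPM in HMP livers, 453, 450.0 and 398 CPM in SCS livers, and 377, 384 and 399 CPM in WI livers. All HOPE livers were above all WI livers, but the log2 fold change was small at 0.22 ± 0.162 (SE, edgeR adjusted p = 0.718), with a 95% interval of -0.13 to 0.57. The highest and the lowest Igf1 values were again both in HMP livers.

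The question for each pair of groups was whether the mode of storage was followed by a change in these genes, and no member was called at an adjusted p under 0.05 in any comparison by edgeR or DESeq2. Of HOPE against WI livers, 0 of 9 members were called, beside 0% of all tested genes by edgeR and 0.681% by DESeq2. Irs2 alone passed without adjustment, beside 8.57% of all genes, and 2 members (Igf1 higher, Irs2 lower) did not overlap, beside 16.2% of all genes. Of HOPE against SCS livers, edgeR and DESeq2 called 0 of 9 members, beside 0% and 1.02% of all genes. No member passed without adjustment (10.9% of all genes) and no member had groups apart (19.2% of all genes). Of HOPE against HMP livers, 0 of 9 were called by either tool (0% and 0.102% of all genes), 0 passed without adjustment (7.48%) and 0 were apart (11.1%).

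For HMP against WI livers, edgeR and DESeq2 called 0 of 9 members, against 0% and 2.86% of all genes, and Irs2 alone passed without adjustment (13.8% of all genes) and alone did not overlap (16% of all genes). For HMP against SCS livers, 0 of 9 were called (0% and 3.17% of all genes by edgeR and DESeq2), and Fbp1 alone passed without adjustment (14.5% of all genes) and did not overlap (17.9% of all genes). For SCS against WI livers, 0 of 9 were called (0% and 0.11% of all genes), and Irs2 alone passed without adjustment (4.77%) and did not overlap (13%). Over the 6 perfused (HOPE and HMP) against the 6 unperfused (SCS and WI) livers, 0 of 9 members were called, where edgeR called 1.02% and DESeq2 5.37% of all genes. There Fbp1 alone passed without adjustment (17.7% of all genes), with a log2 fold change of -0.37 ± 0.129 (SE, edgeR adjusted p = 0.179), and no member was apart (1.83% of all genes). In all 7 comparisons at most 1 of 9 members passed without adjustment and at most 2 did not overlap.

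**Figure D2:**
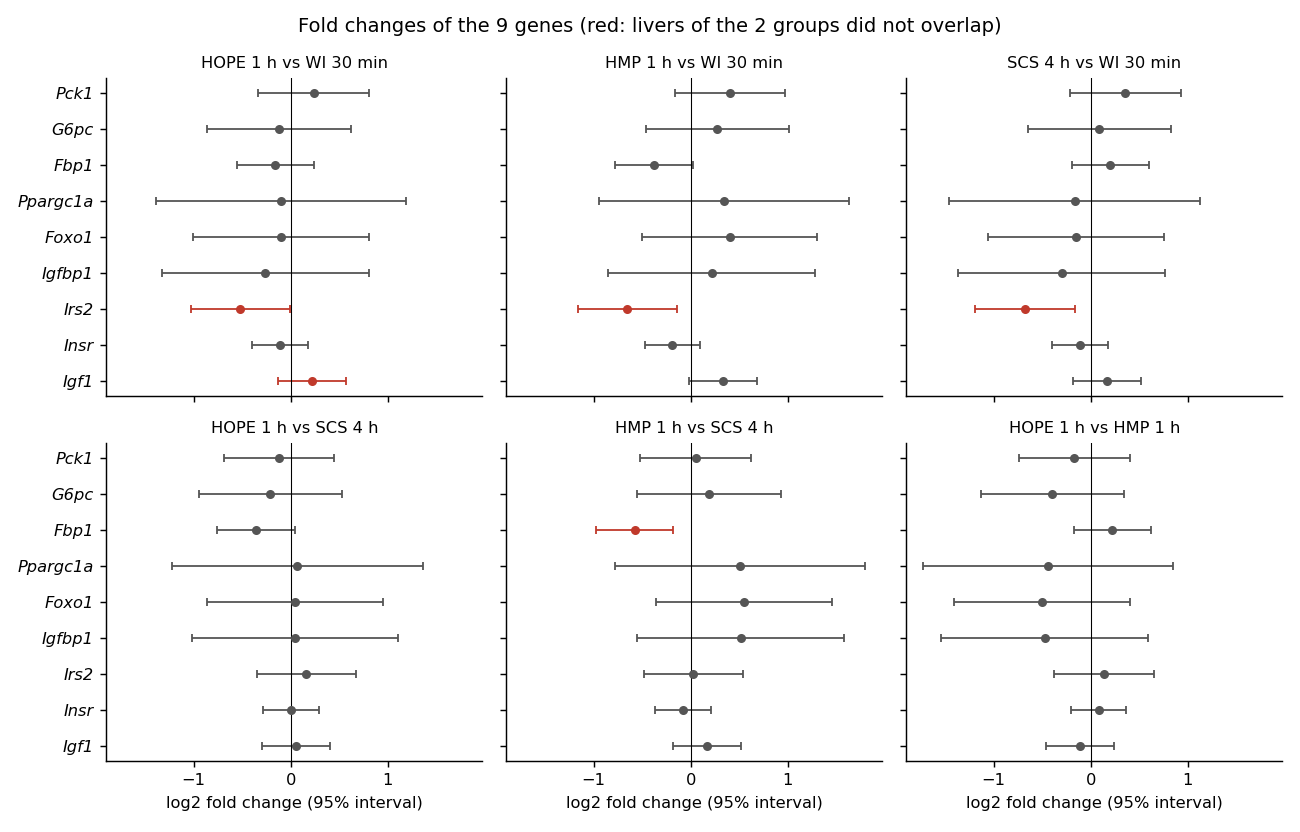
Log2 fold changes (horizontal axes) of the 9 genes (vertical axes) in the 6 pairwise comparisons of groups from edgeR, with 95% intervals as bars. Red marks genes whose livers did not overlap between the 2 groups. The intervals are narrow for Insr and Igf1 and widest for Ppargc1a, where that of HOPE against HMP runs from -1.72 to 0.85.

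The absence of calls covers genes with very different precision. For Insr the intervals of all pairwise fold changes lay between -0.48 and 0.37 on the log2 scale. For Ppargc1a, in contrast, the interval of HMP against SCS ran from -0.78 to 1.80, which reaches a 3.48-fold difference. The intervals of Igfbp1 and Foxo1 were nearly as wide, at -0.55 to 1.58 and -0.36 to 1.46 in the same comparison. The medians of the members' log2 fold changes lay between -0.17 (HOPE against HMP) and 0.28 (HMP against WI), beside medians of -0.01 and 0.03 over all genes tested.

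Several of these genes had a wide spread between livers of the same treatment. The SD within groups was 0.93 for Ppargc1a, 0.71 for Igfbp1, 0.60 for Foxo1 and 0.50 for G6pc on the log2 CPM scale, against a median of 0.29 over all tested genes. Each was ranked within a bin of 1368 or 1369 genes of like abundance, where Foxo1 stood at the 97.4 percentile, Igfbp1 at 97.2, Ppargc1a at 96.1 and G6pc at 90.8. Irs2 (SD 0.32) stood at the 81.5 percentile of its bin and Pck1 (SD 0.34) at 79.1. Fbp1 (SD 0.22) was at 56.0, Igf1 (SD 0.19) at 44.9 and Insr (SD 0.15) at 28.1. This ranking is a description with no test.

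**Figure D3:**
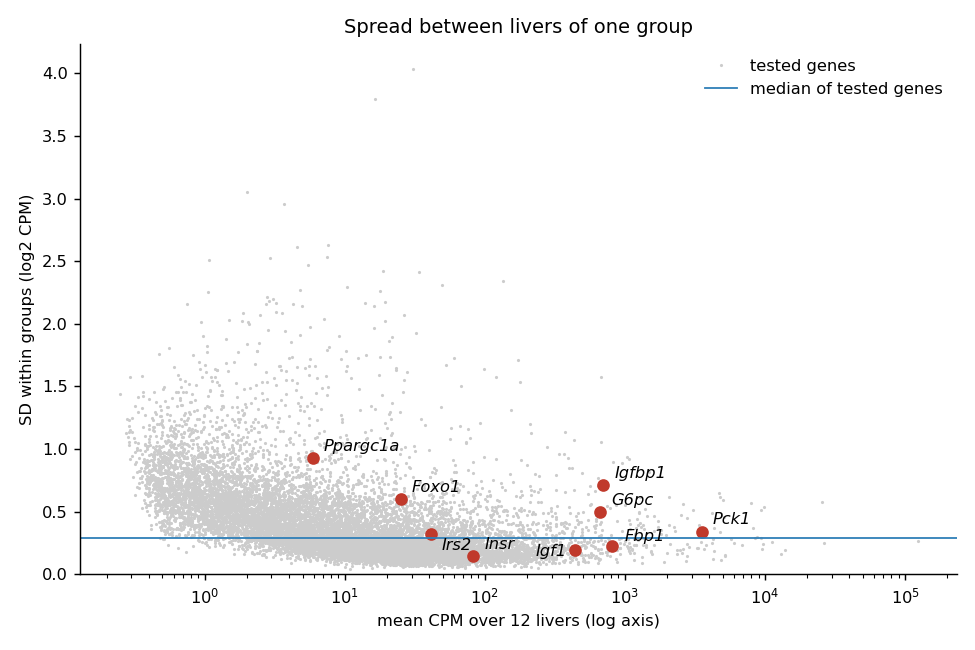
SD of log2 CPM between livers within groups (vertical axis) against mean CPM over the 12 livers (horizontal log axis). Grey points are the 13687 tested genes, the line is their median (0.29) and red points are the 9 genes. Ppargc1a, Igfbp1, Foxo1 and G6pc stand above most genes of like abundance, while Insr and Igf1 do not.

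Read liver by liver, HMP liver 1 and HMP liver 3 lay at opposite ends. HMP liver 1 had the lowest value of the 12 livers for 4 members (Fbp1, Igf1, Insr and Ppargc1a) and the lowest of its group for 7 of 9. HMP liver 3 had the highest of the 12 for 4 members (G6pc, Igfbp1, Pck1 and Ppargc1a) and the highest of its group for 7 of 9. These 2 livers differed in mitochondrial counts (18.7% in liver 1 and 5.27% in liver 3) and in summed hepatocyte markers (155251 and 213285 CPM), and the part of either in the gene values was not tested.

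**Figure D4:**
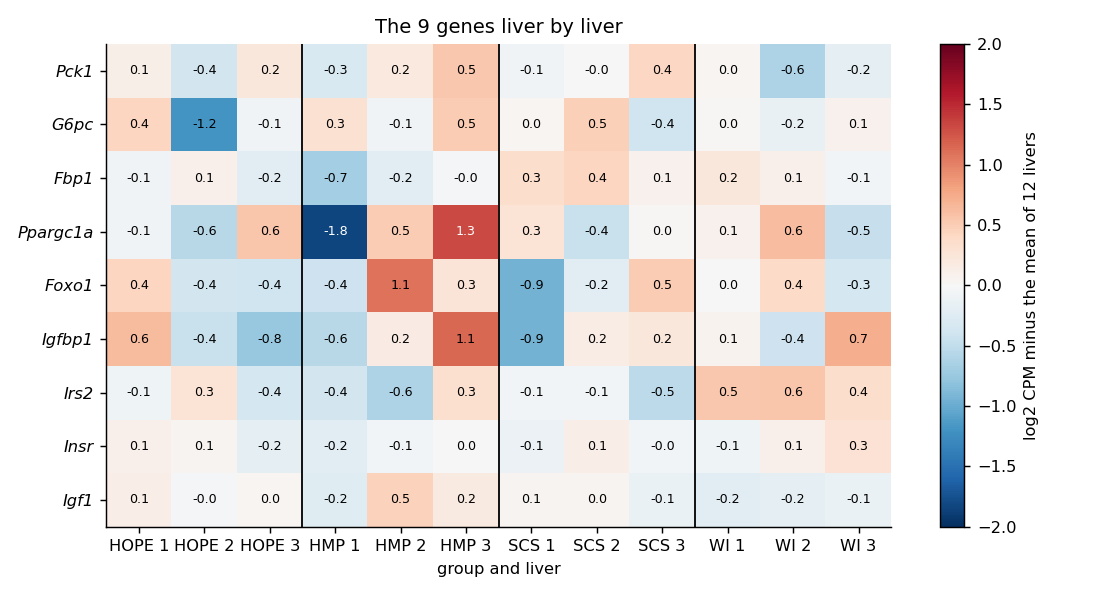
Log2 CPM minus the mean of the 12 livers (colour scale and printed value) for the 9 genes (rows) in each liver (columns, by group). Cells of HMP liver 1 are mostly below 0 and those of HMP liver 3 mostly above, Irs2 is above 0 in the 3 WI livers, and G6pc is lowest in HOPE liver 2.

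Relations among the members across livers were mostly positive and weak. Of the 36 pairs of members, 29 had a positive and 7 a negative Pearson correlation over the 12 livers, with a median r of 0.19 and a range of -0.41 to 0.55. None of the 36 passed a permutation test of Pearson's r before adjustment. By Spearman's rho, Foxo1 with Igfbp1 (rho 0.68, permutation p = 0.0186, adjusted p = 0.329) and Igfbp1 with Insr (rho 0.60, permutation p = 0.0422, adjusted p = 0.379) passed before adjustment and not after it. With each group centred on its own mean, r lay between -0.33 (Foxo1 with Irs2) and 0.71 (Fbp1 with Irs2). Each member was also set against 6 genes that report hormones, food and time of day, among them Srebf1, induced by insulin, Pdk4, raised in fasting, Tat, raised by glucocorticoids, and the clock-related genes Dbp and Per1. Dbp ran from 7.2 CPM in WI liver 2 to 185 CPM in HOPE liver 2. The hour of surgery is not given, and its part in the gene values was not tested. Of the 90 relations in all, 8 passed a two-sided permutation test of Pearson's r before and 1 after Benjamini-Hochberg adjustment.

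That relation was between Pck1 and Tat, the tyrosine aminotransferase that breaks down tyrosine to feed gluconeogenesis. Tat had 1244, 1065 and 1777 CPM in HOPE livers, 728, 1972 and 2049 CPM in HMP livers, 786, 1022 and 1869 CPM in SCS livers, and 1081, 606 and 1152 CPM in WI livers. Liver 2 of the WI group was the lowest and liver 3 of the HMP group the highest for both genes. Pearson's r over the 12 livers was 0.88 (permutation p = 0.00023, adjusted p = 0.0207) and Spearman's rho 0.88 (permutation p = 0.00036, adjusted p = 0.0324). Without the 2 livers farthest from the median of Pck1, r was 0.78, and with each group centred on its own mean it was 0.90. The adjusted p passed the threshold in 7 of the 12 fits that left out 1 liver, with r between 0.83 and 0.91, and it missed it without WI liver 2, SCS liver 3, HMP liver 1, HMP liver 3 or HOPE liver 3.

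**Figure D5:**
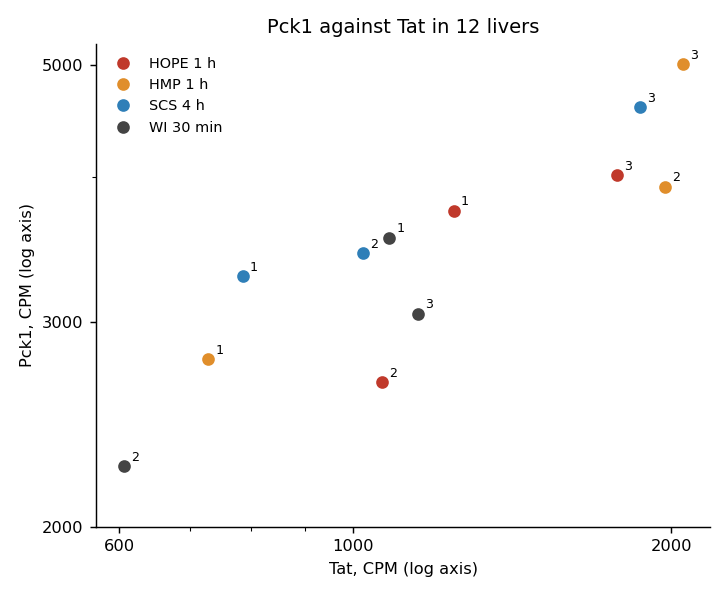
Pck1 (vertical axis) against Tat (horizontal axis), both in CPM on log scales, 1 point per liver coloured by group and marked with the liver number. Livers with more Tat mostly had more Pck1 (r = 0.88 over the 12 livers), with WI liver 2 at the low end and HMP liver 3 at the high end.

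Among the relations with Pearson's r past the threshold only before adjustment were Igfbp1 with Srebf1 (r = 0.70), Pck1 with Per1 (r = 0.69), Irs2 with Pdk4 (r = 0.68), Foxo1 with Per1 (r = 0.66) and Igf1 with Tat (r = 0.60), all positive. Igfbp1 is repressed by insulin and Srebf1 is induced by it, and their relation was positive. Within groups, r was 0.81 for Pck1 with Per1 and 0.80 for Irs2 with Pdk4.

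Genes with the most similar course over the 12 livers were sought among the 8965 named genes with a mean of at least 5 CPM, with no test. For Pck1 they were Xkr9 (r = 0.89) and Tat (0.88), and for G6pc Shank2 (0.88) and Cd276 (0.88). For Ppargc1a they were Pxmp4 (0.93) and Klf9 (0.89), a glucocorticoid-induced factor, and for Igfbp1 Gin1 (0.91) and Arih1 (0.90). For Irs2 they were Sdhaf3 (0.87) and Ercc6l2 (0.86), and for Igf1 Plpp3 (0.90) and Dap3 (0.90). These points share the depth and composition of 12 libraries, and the highest of so many correlations is high by selection.

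The wider pathways around the 9 genes were read from 8 lists. Of 20 tested genes of glucose output and gluconeogenesis, edgeR called 0 in the 6 pairs of groups, and 2 fell and 0 rose by edgeR in perfused against unperfused livers (1.02% of all genes called). The 2 were Mdh2, a mitochondrial malate dehydrogenase, and Mpc2, a subunit of the carrier that brings pyruvate into mitochondria. Mdh2 averaged 164 ± 12.1 CPM in HOPE and 144 ± 14.7 CPM in HMP livers, against 227 ± 9.54 CPM in SCS and 218 ± 40.5 CPM in WI livers (SD, n = 3 each). All 6 perfused livers (134 to 178 CPM) were below all 6 unperfused livers (180.1 to 261 CPM), in a comparison where 1.83% of all genes did not overlap. The Mdh2 log2 fold change was -0.54 ± 0.102 (SE, edgeR adjusted p = 0.0409). Mpc2 averaged 139 ± 15.2 CPM in HOPE and 113 ± 33.7 CPM in HMP livers, against 242 ± 20.9 CPM in SCS and 197 ± 37.7 CPM in WI livers, a log2 fold change of -0.80 ± 0.152 (SE, edgeR adjusted p = 0.0409). The list's median log2 fold change was -0.09, beside 0.03 over all genes, with 11 of 20 genes below 0 and 9 above. DESeq2 called more of this list, all of them lower. It called 2 genes in HOPE against SCS livers (Mpc2 and Got2, a mitochondrial aspartate aminotransferase), 2 in HMP against WI livers (Mdh2 and Mpc2) and 3 in HMP against SCS livers (Mdh2, Mpc2 and Got2), beside 1.02%, 2.86% and 3.17% of all genes. In perfused against unperfused livers DESeq2 called 4 genes (the same 3 and Mdh1, the cytosolic malate dehydrogenase), beside 5.37% of all genes, and in the other 3 pairs of groups it called 0. Got2 and Mdh1 were chosen after their values were seen.

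Markers of other liver cells had mostly positive fold changes in perfused against unperfused livers. These were 7 of 8 stellate cell markers (median log2 fold change 0.62) and 7 of 7 sinusoidal endothelial markers (0.53). So were 9 of 9 Kupffer cell markers (0.60) and 4 of 4 tested bile duct markers (0.69), beside a median of 0.03 over all genes. Of these markers edgeR called 0 and DESeq2 called 2 stellate markers, beside 1.02% and 5.37% of all genes. The summed stellate level was 627 to 1848 CPM in perfused and 514 to 962 CPM in unperfused livers, and the endothelial level 407 to 1049 CPM in perfused and 401 to 593 CPM in unperfused livers. The Kupffer level was 534 to 1745 CPM in perfused and 468 to 736 CPM in unperfused livers, and the bile duct level 13.8 to 30.7 CPM in perfused and 14.6 to 21.2 CPM in unperfused livers. HMP liver 1 and HOPE liver 3 had the highest stellate and endothelial levels of the 12. Without these 2 livers the log2 fold change was -0.50 for Mdh2 (edgeR adjusted p = 0.0991) and -0.87 for Mpc2 (edgeR adjusted p = 0.0834). The part of these cells in the list values was not tested.

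The list of 24 fasting-induced genes that insulin represses had 1 call by edgeR over the 7 comparisons, Acot1, an acyl-CoA thioesterase induced in fasting, in perfused against unperfused livers. Acot1 had 4.7, 7.4 and 8.1 CPM in HOPE livers and 7.4, 1.1 and 1.8 CPM in HMP livers, against 62.6, 14.8 and 27.4 CPM in SCS livers and 73.8, 23.4 and 9.1 CPM in WI livers. Every perfused liver was below every unperfused one, in a comparison where 1.83% of all genes did not overlap. The log2 fold change was -2.86 ± 0.587 (SE, edgeR adjusted p = 0.0457). Without HMP liver 1 and HOPE liver 3 it was -3.58 (edgeR adjusted p = 0.0544). Acot1 has near-identical relatives in its gene family, and how reads shared with them were counted is not stated, so its value is uncertain. By DESeq2, 5 genes of the list were called lower in HMP against WI livers (Acot1, Cpt1a, Cpt2, Cyp8b1 and Gadd45a), beside 2.86% of all genes. DESeq2 called 1 higher (Ddit4) and 2 lower (Acot1 and Cpt1a) in HMP against SCS livers, beside 3.17% of all genes. It called 1 higher (Ddit4) and 4 lower (Acot1, Cpt1a, Cyp8b1 and Gadd45a) in perfused against unperfused livers, beside 5.37% of all genes, and 0 in the other 4 comparisons. These genes other than Acot1 were chosen after their values were seen. Cpt1a and Cpt2, which carry fatty acids into mitochondria, had log2 fold changes of -0.81 and -0.61 in HMP against WI livers (edgeR adjusted p = 0.0975 and 0.131, DESeq2 adjusted p = 0.00117 and 0.00864).

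With 1 liver left out at a time, the edgeR calls of Acot1, Mdh2 and Mpc2 were mostly lost, while every fold change stayed negative. The Acot1 call was kept only without WI liver 3 or HMP liver 1 and lost in the other 10 of 12 fits (edgeR adjusted p up to 0.123). The Mdh2 call was kept only without WI liver 2, WI liver 3 or HMP liver 3 (adjusted p up to 0.113), and the Mpc2 call only without WI liver 3 or any 1 of the HMP livers (adjusted p up to 0.121).

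The remaining 6 lists had 0 calls by edgeR in the 7 comparisons. By DESeq2 they had at most 3 genes of a list called in any 1 comparison, beside 0.102% to 5.37% of all genes. They held 27 tested regulators of gluconeogenic transcription, 36 genes of insulin receptor signalling, 15 insulin-induced genes of the fed liver, 20 genes of the growth hormone and Igf axis, 17 glucocorticoid-induced genes and 15 clock genes. The 12 genes named from them by the lowest p of any difference were Creb3l3, Sik2, Ptpn1, Ide, Acacb, Egr1, Igf2r, Serpina3c, Sgk1, Mt1, Npas2 and Cry1, and their edgeR adjusted p over the 4 groups lay between 0.224 and 0.322. Of the Igf axis list, DESeq2 called Serpina3c, Igfbp2 and Igfbp3 higher in perfused against unperfused livers (5.37% of all genes). In HMP against WI livers it called Serpina3c and Igfbp2 higher and Igf2r lower (2.86%). It called Serpina3c higher in HOPE against WI (0.681%) and Igf2r lower in HMP against SCS livers (3.17%). Of insulin signalling it called Ide and Akt2 lower in perfused against unperfused livers (5.37%). It called Ide lower in HMP against WI (2.86%) and Trib3 lower in HMP against SCS livers (3.17%). Of the regulators it called Creb3l3 lower in HMP against SCS (3.17%) and in perfused against unperfused livers (5.37%). Igfbp2, Igfbp3, Akt2 and Trib3 were chosen after their values were seen. In perfused against unperfused livers the median log2 fold change was 0.06 for the regulators, -0.02 for insulin signalling, 0.20 for the insulin-induced genes, 0.21 for the growth hormone and Igf axis and 0.16 for the clock genes, beside 0.03 over all genes. The pairs of groups differed. For the clock genes the median was 0.59 in HOPE against WI, 0.49 in HOPE against HMP and 0.04 in HMP against WI livers. It was 0.37 in HOPE against SCS, -0.24 in HMP against SCS and 0.37 in SCS against WI livers. The livers overlapped on the clock list. Its mean centred levels were 0.04 to 0.46 in HOPE and -0.53 to 0.37 in HMP livers. They were -0.19 to 0.11 in SCS and -0.48 to 0.17 in WI livers. In HOPE against WI livers 4 clock genes were higher and 3 lower before adjustment, beside 8.57% of all genes. DESeq2 called Npas2 higher in HMP against SCS (3.17%) and Cry1 lower in SCS against WI livers (0.11%). For the insulin-induced genes the median was 0.52 in HMP against WI, 0.04 in HOPE against WI and -0.45 in HOPE against HMP livers. DESeq2 called 2 of the 15 insulin-induced genes higher and 1 lower in HMP against WI livers, beside 2.86% of all genes. Acacb, an acetyl-CoA carboxylase, had 33.9, 45.9 and 54.1 CPM in HMP livers and 20.7, 25.7 and 27.7 CPM in WI livers (log2 fold change 0.85 ± 0.183, SE, edgeR adjusted p = 0.0930, DESeq2 adjusted p = 0.00516). Egr1, an early response factor, had 285, 228 and 271 CPM in HMP livers and 143, 194 and 150.1 CPM in WI livers (log2 fold change 0.69 ± 0.183, SE, edgeR adjusted p = 0.153, DESeq2 adjusted p = 0.0238). The lower one, Gys2, the liver glycogen synthase, chosen after its values were seen, had 45.2, 51.7 and 86.3 CPM in HMP livers and 113.9, 124.5 and 104.1 CPM in WI livers (log2 fold change -0.90 ± 0.232, SE, edgeR adjusted p = 0.141, DESeq2 adjusted p = 0.0171).

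Sgk1, a kinase that glucocorticoids induce, had 24.7, 41.7 and 53.5 CPM in HOPE livers and 45.4, 37.0 and 39.6 CPM in HMP livers, against 41.2, 19.4 and 49.9 CPM in SCS livers and 16.2, 14.7 and 18.01 CPM in WI livers. Its log2 fold change against WI was 1.29 ± 0.323 in HOPE livers (SE, edgeR adjusted p = 0.353, DESeq2 adjusted p = 0.0288). It was 1.32 ± 0.323 in HMP livers (SE, edgeR adjusted p = 0.131, DESeq2 adjusted p = 0.00705). DESeq2 called 0.681% and 2.86% of all genes in these 2 comparisons. The unperfused SCS livers also had a higher Sgk1 mean than WI livers (36.8 against 16.3 CPM). There DESeq2 called 0 of the 17 glucocorticoid-induced genes, beside 0.11% of all genes. The median of the glucocorticoid list was 0.41 in perfused against unperfused livers, with 14 of 17 genes above 0, beside a median of 0.03 over all genes. Past the unadjusted threshold were 4 of the list, all higher, beside 17.7% of all genes. The livers overlapped on this list, with mean centred levels of -0.67 to 0.70 in perfused and -0.37 to 0.41 in unperfused livers. Perfused livers above 0 were HMP livers 2 and 3 (0.70 and 0.58) and HOPE liver 3 (0.52). Below 0 were HMP liver 1 (-0.67) and HOPE livers 1 and 2 (-0.08 and -0.23). Pck1 and Igfbp1, which glucocorticoids also raise, had 0.14 and 0.13 in the same comparison. In the insulin-induced list the 3 HMP livers again differed most, with a mean centred level of -0.59 in liver 1, 0.89 in liver 2 and 0.66 in liver 3.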

How the data were processed

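RNA from 12 rat livers was sequenced in 4 groups of 3. The authors aligned paired reads to Rnor_6.0 with Hisat2 and assembled transcripts with StringTie, and they deposited gene counts and, in the same table, FPKM values (counts per gene length and library size). The sources used here do not name the counting tool. All 24 value columns were matched to a liver by name, and no 2 libraries were identical. The 9 members and all lists were chosen with earlier results of these data known.

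Counts were filtered (filterByExpr), scaled by TMM and fitted with edgeR 4.0.16 quasi-likelihood in R 4.3.3, 1 mean per group over all 12 livers, and Benjamini-Hochberg adjustment over 13687 genes. Called means an adjusted p under 0.05. SE is the fold change divided by the root of F. DESeq2 1.42.0 was an alternative, tested with edgeR on simulated data. Log2 CPM used a prior count of 2 and correlations 100000 resamples. FPKM served only to compare levels between genes. Named from each list were up to 3 called genes or the 2 with the lowest p of any difference among groups. Other alternatives were RLE scaling, no filter, no mitochondrial transcripts, only the groups compared, a replicate block, each liver left out, and HMP liver 1 and HOPE liver 3 left out. The relations of 1 of the 6 genes set against the members are not reported here.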

Additional observations from a re-analysis of the deposited data

Results flagged for a closer look

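Groups of 3 livers are too small for an outlier test, so each member was tested in the 6 perfused and the 6 unperfused livers, 18 tests in all, of which chance flags about 1 in 20. A single value stood out. G6pc in HOPE liver 2, at 281 CPM, lay below the other 5 perfused livers (609 to 914 CPM), and its gap to the nearest of them on the log2 scale was 0.656 of the whole range, above Dixon's 95% critical value for 6 livers. Pck1 in the same liver (2664 CPM) was the lowest of the 6 perfused livers too, without passing that limit.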

How the results depend on the processing

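No member was called in any of the 7 comparisons under any alternative run, the replicate block included (0 members called). Same-numbered livers of different groups deviated together only weakly (r between -0.19 and 0.14 over 18 pairs, median 0.03). The 36 pairs with unlike numbers had r between -0.23 and 0.33 (median -0.01), and the numbers were not used as pairs. Of the 63 fold changes of members, 34 changed sign under at least 1 alternative, but none did so with both values beyond their SE, and the lowest adjusted p was 0.0691. The count of called relations among 90 was 1, and it was 4 with groups centred on their means (adding Insr with Srebf1, Irs2 with Pdk4 and Pck1 with Per1). It was 0 without the pair HMP liver 1 and HOPE liver 3, and 0 to 2 with 1 liver left out. The cause was not tested. Each of the 3 added relations had an adjusted p of 0.0477 by the permutation test of Pearson's r. Centring on group means leaves fewer independent values than livers, which can make these p-values too small. No conclusion is drawn from the 3 added relations. Over all genes, perfused against unperfused livers gave 140 calls, against 734 by DESeq2, 66 with the replicate block, 61 without HMP liver 1 and HOPE liver 3, and 0 to 166 with 1 liver left out, the 0 without HOPE liver 1 or HOPE liver 3. The 6 pairs of groups gave 0 calls, against 14 to 433 by DESeq2 and at most 46 in the edgeR alternatives.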
